A study of Homo sapiens with 18 samples.

Results

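The ATP-binding cassette (ABC) genes were followed in U2OS cells, an established human osteosarcoma line, with and without the nucleoside drug cytarabine. Members were all protein-coding genes of the deposited count table whose symbol consists of ABC, a subfamily letter from A to G and a number, which gave 42 genes of 25296 in the table (16451 of them protein-coding). Of these, 38 had enough counts to be tested, among 18226 tested genes. ABCB11, ABCC11, ABCG5 and ABCG8 held between 0 and 7 counts in each library and were not tested.

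The study compared 3 lines of U2OS cells made with the retroviral vector MigR1. One carried the empty vector (EV), one overexpressed wild-type DNMT3A (WT) and one overexpressed mutant DNMT3A (MUT), a change that the series text names R882C and another label names R882H. DNMT3A is an enzyme that methylates cytosine in DNA at CG sites. Libraries came from cells kept without drug (untreated in the sample labels, vehicle control in the series text) and from cells given 10 µM cytarabine for 24 h. Cytarabine is built into DNA and stalls replication. Each of the 6 groups had 3 replicate libraries, 18 in all. The replicates are described as biological triplicates of 1 line each, so p-values rest on the spread between cultures of these lines. That spread was estimated for each gene over all 6 groups together. Whether a line is 1 clone or a pool is not given in the sources used here.

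ABC proteins share a nucleotide-binding domain that hydrolyses ATP. Most have membrane domains and pump a substrate out of the cell or into an organelle, among them drugs, conjugated anions, sterols, phospholipids, fatty acids and peptides. The ABCE and ABCF proteins lack membrane domains and act on ribosomes, and ABCC8 and ABCC9 are regulatory subunits of potassium channels that close when ATP is high.

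Library totals ran from 15.4 M to 21.9 M counts, so that 1 count was worth 0.0428 to 0.0629 CPM (counts scaled to a library of 1e+06), and between 38 and 42 of the 42 ABC genes had a count in each library. DNMT3A lay at 26.2 to 27.5 CPM in untreated and 45.5 to 49.6 CPM in treated EV libraries. WT libraries held 129 to 139 CPM untreated and 166 to 182 CPM treated. Untreated MUT replicates 1, 2 and 3 held 500, 615 and 254 CPM, and treated MUT libraries 515 to 532 CPM. Both overexpressing lines thus lay above EV, and MUT lay above WT, an order that the labels do not give. The mutation and the DNMT3A level differ together between MUT and WT, so their parts cannot be told apart. Replicates were least alike in untreated MUT cells, where the biological coefficient of variation was 0.215, against 0.133 in treated EV and 0.0397 to 0.0697 in the other groups. Because the tests pool the spread over groups, SEs and p-values of comparisons with untreated MUT cells do not reflect that wider spread alone. Of the 10 osteoblast-lineage markers listed, 8 were in the table and 7 were tested, and their summed level was 3117 to 3913 CPM in untreated and 2260 to 2712 CPM in treated libraries. The list includes VIM, and how the sum is spread over its genes is not given here. Of 6 blood cell markers, 4 were in the table and summed to 0.228 to 1.60 CPM per library. The 6 epithelial markers, 5 of them tested, summed to 468 to 984 CPM, held mostly by KRT8 (68.1 to 418 CPM) and KRT18 (300 to 592 CPM), with EPCAM at 1.85 to 4.01 CPM and CDH1 at 0.370 to 5.18 CPM. The ABC genes together held 0.0884 to 0.101% of the counts in untreated and 0.106 to 0.112% in treated libraries.

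Most tested ABC genes changed with cytarabine, in both directions. Of 13 tested exporters of sterols and phospholipids, 9 rose in all 3 lines, as did the drug exporters ABCB1 and ABCG2 and both potassium channel subunits. The MUT call of ABCG2 and the WT and MUT calls of the subunit ABCC8 were lost in some fits that left out 1 library. The 4 ribosome-acting genes, the nucleotide exporter ABCC4 and the mitochondrial ABCB8 fell in all 3 lines. Of all tested genes, 18.9% rose and 16.4% fell in all 3 lines. Tests were made with edgeR's quasi-likelihood test in 1 fit of all 18 libraries, with p-values adjusted by Benjamini and Hochberg over all tested genes and a threshold of 0.05. In bulk RNA, fewer cells of a kind and less RNA per cell cannot be told apart.

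Cytarabine changed 29 of the 38 tested ABC genes in EV cells, where 49.1% of all tested genes changed. The 22 that rose stand beside 26.1% of all genes higher, and the 7 that fell beside 22.9% lower. The WT line had 25 changed ABC genes (49% of all genes), 18 of them higher (26.3%) and 7 lower (22.7%). For MUT cells the count was 31 (56.3% of all genes), with 24 higher (30.4%) and 7 lower (25.9%). The median log2 fold change of the ABC genes was 0.72 in EV, 0.71 in WT and 0.89 in MUT, and that of all tested genes was 0.05, 0.03 and 0.05. In all 3 lines together 16 ABC genes rose (18.9% of all genes did) and 6 fell (16.4% of all genes did). Another 12 passed in 1 or 2 lines, 4 passed in none, and no ABC gene passed in opposite directions in different lines. The 4 that passed in none were ABCA10, ABCC2, ABCC5 and ABCD3.

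Abundance moved with the direction. Among the 23 ABC genes with a mean log2 CPM under 4, 17 were higher with the drug in EV cells, 13 in WT and 18 in MUT, and 1 was lower in each line. All tested genes of that abundance were higher in 31.5%, 30% and 35.3% and lower in 6.41%, 8.29% and 10.4% of cases in EV, WT and MUT. Of the 15 more abundant ABC genes, 5 were higher in EV cells, 5 in WT and 6 in MUT, and 6 were lower in each line. The corresponding shares of all genes were 20.7%, 22.5% and 25.5% higher and 39.7%, 37.4% and 41.5% lower. The part of abundance in the response of the ABC genes was not tested.

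**Figure D1:**
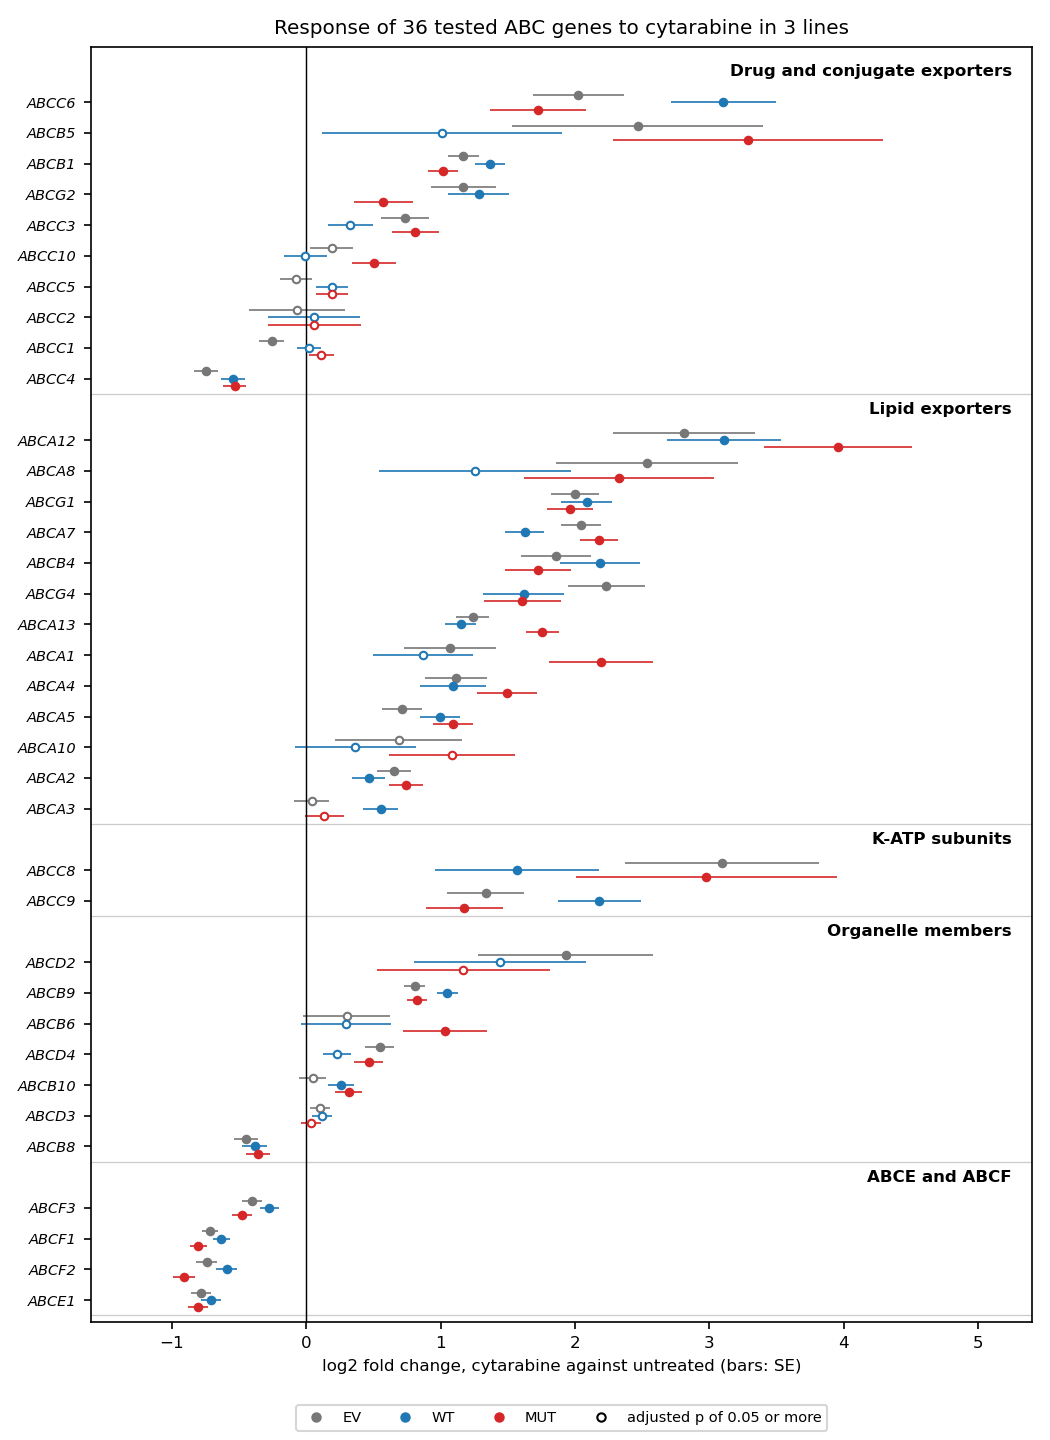
Log2 fold change of 36 tested ABC genes with cytarabine in the EV, WT and MUT lines (x axis), grouped by role, with bars for the standard error. Filled points passed an adjusted p of 0.05 and open points did not. Lipid exporters lie to the right of 0 and the 4 ABCE and ABCF genes to the left in all 3 lines.

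Drug and conjugate exporters are the best known ABC proteins in chemotherapy. Of 11 listed, 10 were tested. In EV cells ABCB1, ABCB5, ABCC3, ABCC6 and ABCG2 rose and ABCC1 and ABCC4 fell. WT cells had 3 that rose (ABCB1, ABCC6 and ABCG2) and 1 that fell (ABCC4), and MUT cells had 6 that rose (ABCB1, ABCB5, ABCC3, ABCC6, ABCC10 and ABCG2) and 1 that fell (ABCC4). Among all tested genes 26.1%, 26.3% and 30.4% were higher and 22.9%, 22.7% and 25.9% lower in EV, WT and MUT. The median log2 fold change of the 10 was 0.46, 0.26 and 0.54. Gene positions are those of the deposited table, on hg38 per the submitters' processing notes.

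ABCB1 (chromosome 7, 87503633 to 87713324, minus strand) encodes P-glycoprotein, the broad multidrug pump. In EV cells ABCB1 stood at 25.6, 20.2 and 28.4 CPM untreated and 54.8, 58.6 and 53.6 CPM with cytarabine. WT libraries held ABCB1 at 27, 22.1 and 23.8 CPM untreated and 60.5, 65.5 and 62.3 CPM treated. The ABCB1 level in MUT cells was 26.3, 33.2 and 24 CPM before and 57.9, 56.1 and 55 CPM after treatment. Every treated library was above every untreated one, and the levels were close between lines. ABCB1 had a log2 fold change of 1.17 (SE 0.11) in EV, 1.37 (SE 0.11) in WT and 1.02 (SE 0.11) in MUT, with edgeR adjusted p of 1.04e-07, 1.33e-08 and 3.29e-07. The untreated and treated lines did not differ in ABCB1 past the threshold in any of the 6 line comparisons, with log2 differences between -0.16 and 0.19. RUNDC3B, which lies on the opposite strand of ABCB1 and could share its reads, stood at 0 to 0.486 CPM.

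ABCG2 (chromosome 4, 88090264 to 88231323, minus strand), the breast cancer resistance protein and an exporter of many drugs, was measured at a few CPM. In EV cells ABCG2 stood at 1.29, 1.64 and 2.4 CPM untreated and 4.45, 4.06 and 3.46 CPM with cytarabine. WT libraries held ABCG2 at 1.91, 2.8 and 2.58 CPM untreated and 5.8, 6.7 and 5.27 CPM treated. The ABCG2 level in MUT cells was 3.01, 4.53 and 2.63 CPM before and 4.92, 5.41 and 4.75 CPM after treatment. The ranges did not overlap within a line, and the untreated MUT libraries had the highest untreated mean and the widest spread. ABCG2 had a log2 fold change of 1.17 (SE 0.24) in EV, 1.28 (SE 0.23) in WT and 0.57 (SE 0.22) in MUT, with edgeR adjusted p of 0.000503, 0.000102 and 0.0334. The rise in MUT cells lost its call without 1 of 4 libraries, with log2 fold changes of 0.39 without untreated replicate 3, 0.50 without untreated replicate 1, 0.52 without treated replicate 2 and 0.59 without treated replicate 1. It was also lost with the authors' library factors (0.49) and in a fit of the MUT groups alone (0.57). The difference between the MUT and WT responses was -0.71 (SE 0.32, edgeR adjusted p 0.288) and did not pass.

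ABCC4 (chromosome 13, 95019829 to 95301476, minus strand) exports cyclic nucleotides and nucleotide analogues. In EV cells ABCC4 stood at 38.8, 40.5 and 42.3 CPM untreated and 21.9, 26 and 24.6 CPM with cytarabine. WT libraries held ABCC4 at 33.8, 36.5 and 34.6 CPM untreated and 25.1, 24 and 22.7 CPM treated. The ABCC4 level in MUT cells was 48, 55.7 and 42.4 CPM before and 33.7, 33.7 and 33.6 CPM after treatment. All 9 treated libraries lay below all 9 untreated ones, with the treated MUT libraries just under the lowest untreated WT library. ABCC4 had a log2 fold change of -0.75 (SE 0.090) in EV, -0.55 (SE 0.090) in WT and -0.53 (SE 0.087) in MUT, with edgeR adjusted p of 1.36e-06, 5.07e-05 and 3.62e-05. These calls held in each of the 12 alternatives of each line. ABCC4 also differed between lines, and after cytarabine MUT cells held more of it than EV cells (log2 difference 0.48, SE 0.090, edgeR adjusted p 0.00137) and than WT cells (0.49, SE 0.089, edgeR adjusted p 0.000653).

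ABCC1 (chromosome 16, 15949577 to 16143075, plus strand), the multidrug resistance-associated protein that exports glutathione conjugates, was the most abundant drug exporter per exonic length in untreated EV cells at 6.06 ± 0.20 CPM per kilobase of exon (RPKM; SD, n = 3). In EV cells ABCC1 stood at 52.3, 54.9 and 51.7 CPM untreated and 41.8, 47.5 and 43.9 CPM with cytarabine. WT libraries held ABCC1 at 53.7, 56 and 47.4 CPM untreated and 52.9, 56.1 and 50.5 CPM treated. The ABCC1 level in MUT cells was 51.9, 50.8 and 39.1 CPM before and 52.3, 48.7 and 52.4 CPM after treatment. The groups separated in EV cells, where the treated level was lower, and overlapped in WT and MUT cells. ABCC1 had a log2 fold change of -0.26 (SE 0.092) in EV, 0.02 (SE 0.091) in WT and 0.11 (SE 0.092) in MUT, with edgeR adjusted p of 0.0276, 0.862 and 0.307, of which WT and MUT did not pass. The EV call was lost without untreated replicate 1 or 2 (-0.27 and -0.23) and without treated replicate 1 or 3 (-0.21 and -0.25). None of the 3 differences between the lines' responses passed, the largest being 0.37 (SE 0.13, edgeR adjusted p 0.187) for MUT against EV.

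ABCC10 (chromosome 6, 43427366 to 43450431, plus strand), a relative of ABCC1 that exports taxanes, had group means between 8.48 and 13.1 CPM. In EV cells ABCC10 stood at 10.5, 13.6 and 10.3 CPM untreated and 13.7, 12.5 and 13.1 CPM with cytarabine. WT libraries held ABCC10 at 12.7, 13.5 and 11.6 CPM untreated and 12.1, 12.8 and 12.9 CPM treated. The ABCC10 level in MUT cells was 10.8, 9.06 and 5.54 CPM before and 11.6, 12.5 and 12 CPM after treatment. Only in the MUT line did the treated libraries lie above the untreated ones, and there the untreated libraries were spread widely. ABCC10 had a log2 fold change of 0.19 (SE 0.16) in EV, -0.01 (SE 0.16) in WT and 0.50 (SE 0.16) in MUT, with edgeR adjusted p of 0.354, 0.980 and 0.0137, of which EV and WT did not pass. Without untreated MUT replicate 3, which held the lowest level, the MUT value was 0.24 (edgeR adjusted p 0.109), and in a fit of the MUT groups alone it was 0.50 (edgeR adjusted p 0.0952). The untreated MUT level was lower than the WT level by a log2 difference of -0.57 (SE 0.17, edgeR adjusted p 0.0184), which was -0.31 without that library and was no longer called. That call was also lost without untreated WT replicate 1 (-0.57) or 2 (-0.48), and in a fit of the untreated MUT and WT groups alone (-0.58).

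**Figure D2:**
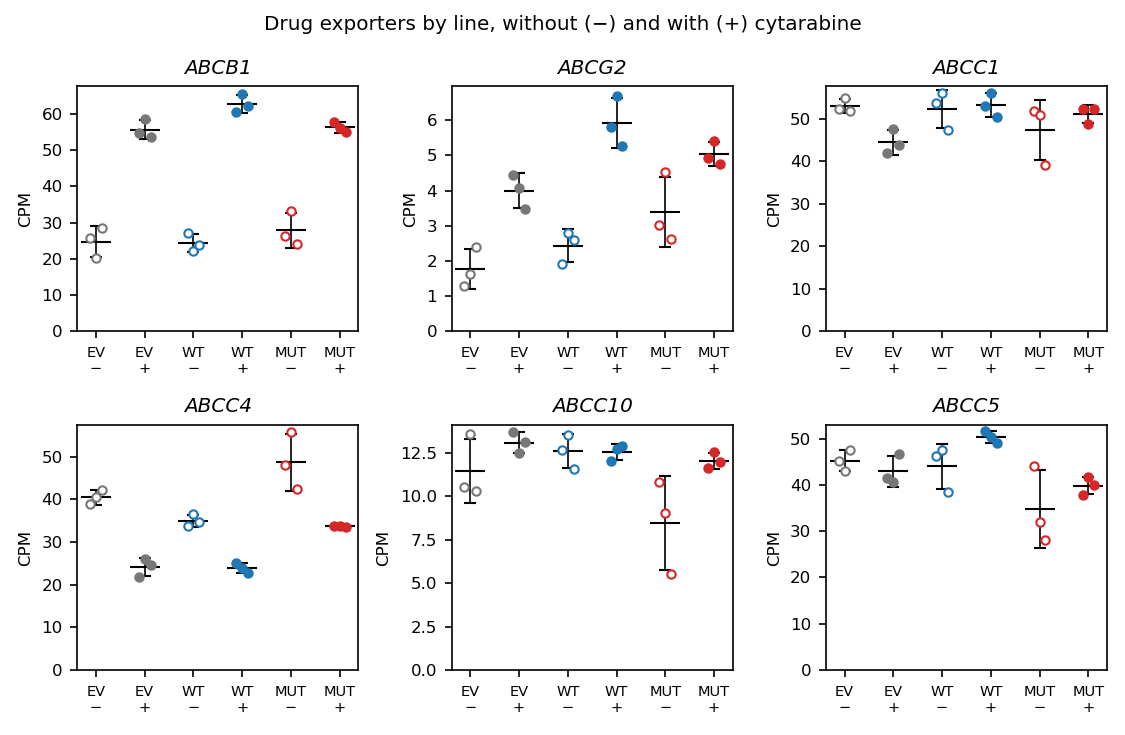
CPM of 6 drug exporters in each library of the 6 groups (open circles untreated, filled circles with cytarabine; bars give mean and SD, n = 3, on axes that start at 0). ABCB1 and ABCG2 were higher and ABCC4 lower with cytarabine in each line, while the groups of ABCC1 overlapped in WT and MUT and those of ABCC10 in EV and WT.

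ABCC3, an exporter of conjugated organic anions (chromosome 17, 50634777 to 50692253, plus strand), rose in EV and MUT cells. In EV cells ABCC3 stood at 4.21, 4.5 and 6.39 CPM untreated and 10.3, 7.49 and 7.31 CPM with cytarabine. WT libraries held ABCC3 at 7.16, 7.62 and 7.2 CPM untreated and 11, 8.16 and 8.41 CPM treated. The ABCC3 level in MUT cells was 4.41, 5.09 and 4.57 CPM before and 7.82, 7.52 and 9.33 CPM after treatment. The treated libraries were above the untreated ones in each line, with the narrowest gap in WT. ABCC3 had a log2 fold change of 0.73 (SE 0.18) in EV, 0.33 (SE 0.17) in WT and 0.81 (SE 0.18) in MUT, with edgeR adjusted p of 0.00183, 0.114 and 0.000619, of which WT did not pass. ABCC6, which supports ATP release from cells, rose in all 3 lines from means of 0.190 to 0.553 CPM untreated to 1.32 to 2.28 CPM treated. Its unprocessed pseudogene ABCC6P1 had means of 0.12 and 0.623 CPM in EV cells without and with the drug, and the counts of the pair cannot be told apart with certainty. ABCB5 was at 0 to 0.292 CPM in untreated and 0.108 to 0.967 CPM in treated libraries, close to the 0.128 to 0.189 CPM that 3 counts are worth, and its EV call was lost in 4 of 6 fits that left out 1 library (each of untreated and treated replicates 1 and 3, with log2 fold changes of 1.90, 1.93, 2.51 and 2.24). ABCC2 and ABCC5, exporters of conjugates and of cyclic nucleotides, had log2 fold changes between -0.07 and 0.19 in the 3 lines, none past the threshold.

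Lipid exporters, which move sterols and phospholipids across membranes, mostly rose. Of 16 listed, 13 were tested, and 11 rose in EV, 10 in WT and 11 in MUT, with none lower. Of all tested genes 26.1%, 26.3% and 30.4% were higher, and of those with a mean log2 CPM under 4, where 12 of the 13 lay, 31.5%, 30% and 35.3%. The median log2 fold changes of the 13 exporters were 1.24, 1.15 and 1.72. ABCA2, ABCA4, ABCA5, ABCA7, ABCA12, ABCA13, ABCB4, ABCG1 and ABCG4 rose in all 3 lines. ABCA10 passed in none, and ABCA3 passed in WT alone.

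ABCA7 (chromosome 19, 1040101 to 1065573, plus strand), a phospholipid transporter, rose in all 3 lines. In EV cells ABCA7 stood at 3.68, 4.09 and 3.5 CPM untreated and 17.2, 14.4 and 15.1 CPM with cytarabine. WT libraries held ABCA7 at 4.76, 5.61 and 4.07 CPM untreated and 14.8, 13 and 16.7 CPM treated. The ABCA7 level in MUT cells was 6.22, 4.84 and 5.31 CPM before and 24.4, 22 and 28.1 CPM after treatment. Treated levels were well above the untreated ones, and the treated MUT libraries stood above all others. ABCA7 had a log2 fold change of 2.05 (SE 0.15) in EV, 1.62 (SE 0.14) in WT and 2.18 (SE 0.14) in MUT, with edgeR adjusted p of 2.71e-09, 2.53e-08 and 3.33e-10.

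ABCG1 (chromosome 21, 42199689 to 42297245, plus strand) hands cholesterol to lipoproteins. In EV cells ABCG1 stood at 3.1, 2.86 and 1.78 CPM untreated and 9.73, 9.99 and 11.3 CPM with cytarabine. WT libraries held ABCG1 at 1.47, 1.43 and 1.54 CPM untreated and 6.4, 5.62 and 6.87 CPM treated. The ABCG1 level in MUT cells was 3.01, 3.27 and 3.14 CPM before and 14.4, 10.1 and 12.3 CPM after treatment. Both WT groups lay below the matching EV and MUT groups. ABCG1 had a log2 fold change of 2.00 (SE 0.18) in EV, 2.09 (SE 0.19) in WT and 1.96 (SE 0.17) in MUT, with edgeR adjusted p of 3.23e-08, 4.62e-08 and 1.63e-08. ABCA1, its partner in cholesterol efflux, had group means of 0.480 to 1.28 CPM untreated and 1.34 to 2.72 CPM treated. It rose by a log2 fold change of 1.07 (SE 0.34) in EV and 2.19 (SE 0.39) in MUT and had 0.87 (SE 0.37) in WT, with edgeR adjusted p of 0.0137, 8.26e-05 and 0.0602. The EV call for ABCA1 was lost without treated replicate 2 (0.88), untreated replicate 1 (0.92) or untreated replicate 3 (0.95).

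ABCB4 (chromosome 7, 87401697 to 87480436, minus strand) moves phosphatidylcholine outwards and lies beside ABCB1 on the same chromosome. In EV cells ABCB4 stood at 1.58, 0.818 and 1.05 CPM untreated and 4.25, 4.0 and 4.28 CPM with cytarabine. WT libraries held ABCB4 at 0.343, 0.741 and 0.385 CPM untreated and 2.37, 1.78 and 2.56 CPM treated. The ABCB4 level in MUT cells was 1.4, 1.89 and 1.77 CPM before and 5.98, 4.6 and 6.1 CPM after treatment. All treated libraries were above the untreated ones of the same line, and the WT line was lowest in both states. ABCB4 had a log2 fold change of 1.86 (SE 0.26) in EV, 2.19 (SE 0.30) in WT and 1.72 (SE 0.25) in MUT, with edgeR adjusted p of 8.90e-06, 6.74e-06 and 7.63e-06.

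ABCA13 (chromosome 7, 48171458 to 48647497, plus strand), a very large member of the ABCA subfamily, and ABCA4 (chromosome 1, 93992835 to 94121133, minus strand), which clears retinal derivatives in the eye, rose in all 3 lines. In EV cells ABCA13 stood at 6.89, 5.43 and 6.09 CPM untreated and 14.4, 15.7 and 13.5 CPM with cytarabine. WT libraries held ABCA13 at 8.19, 8.73 and 7.86 CPM untreated and 18.9, 17.4 and 18.7 CPM treated. The ABCA13 level in MUT cells was 5.67, 4.65 and 3.88 CPM before and 15.5, 16.6 and 16.2 CPM after treatment. The untreated mean of ABCA13 was lowest in MUT and highest in WT cells, without overlap of those 2 groups. ABCA13 had a log2 fold change of 1.24 (SE 0.12) in EV, 1.15 (SE 0.12) in WT and 1.76 (SE 0.12) in MUT, with edgeR adjusted p of 1.19e-07, 1.69e-07 and 1.15e-09. In EV cells ABCA4 stood at 1.75, 2.28 and 2.34 CPM untreated and 5.48, 4.0 and 4.32 CPM with cytarabine. WT libraries held ABCA4 at 1.52, 1.22 and 1.43 CPM untreated and 2.13, 4.22 and 2.61 CPM treated. The ABCA4 level in MUT cells was 2.11, 3.02 and 2.68 CPM before and 7.47, 7.37 and 7.1 CPM after treatment. The treated MUT libraries held the most ABCA4. ABCA4 had a log2 fold change of 1.12 (SE 0.23) in EV, 1.09 (SE 0.24) in WT and 1.5 (SE 0.22) in MUT, with edgeR adjusted p of 0.000505, 0.00104 and 1.16e-05.

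Other lipid exporters gave smaller or less precise values. ABCA2 and ABCA5, transporters of late endosomes and lysosomes, rose by log2 fold changes of 0.46 to 0.74 and 0.71 to 1.09. ABCG4, a sterol exporter known from brain, went from group means of 0.741 to 1.02 CPM to 2.30 to 4.80 CPM. ABCA12, the ceramide transporter of skin, had group means of 0.136 to 0.619 CPM untreated and 1.72 to 5.35 CPM treated. Its untreated MUT libraries held 0.351, 0 and 0.0571 CPM, from 7, 0 and 1 counts. ABCA8 rose in EV and MUT cells from means of 0.139 and 0.118 CPM to 0.835 and 0.594 CPM.

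ABCA3 (chromosome 16, 2275881 to 2340747, minus strand), which loads phospholipid into the lamellar bodies of lung, differed between lines and rose with the drug in WT cells. In EV cells ABCA3 stood at 15.8, 16.4 and 16.2 CPM untreated and 15.5, 18.9 and 15.6 CPM with cytarabine. WT libraries held ABCA3 at 13.3, 9.89 and 11.3 CPM untreated and 16.6, 15.3 and 18.8 CPM treated. The ABCA3 level in MUT cells was 5.87, 7.99 and 5.88 CPM before and 6.99, 6.66 and 7.93 CPM after treatment. All 6 MUT libraries lay below all 12 EV and WT libraries. ABCA3 had a log2 fold change of 0.04 (SE 0.13) in EV, 0.56 (SE 0.13) in WT and 0.14 (SE 0.14) in MUT, with edgeR adjusted p of 0.819, 0.00161 and 0.441, of which EV and MUT did not pass. Against EV the untreated MUT level was lower by a log2 difference of -1.30 (SE 0.14, edgeR adjusted p 4.56e-06) and the treated level by -1.21 (SE 0.14, edgeR adjusted p 9.32e-06). Against WT the differences were -0.81 (SE 0.14, edgeR adjusted p 0.00046) untreated and -1.23 (SE 0.14, edgeR adjusted p 3.04e-06) treated. Each of these 4 calls held in all 12 alternatives. Untreated WT cells held less ABCA3 than EV cells (-0.49), and among the fits that left out 1 library this call held only without untreated WT replicate 1, with -0.50 to -0.40 in the others.

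**Figure D3:**
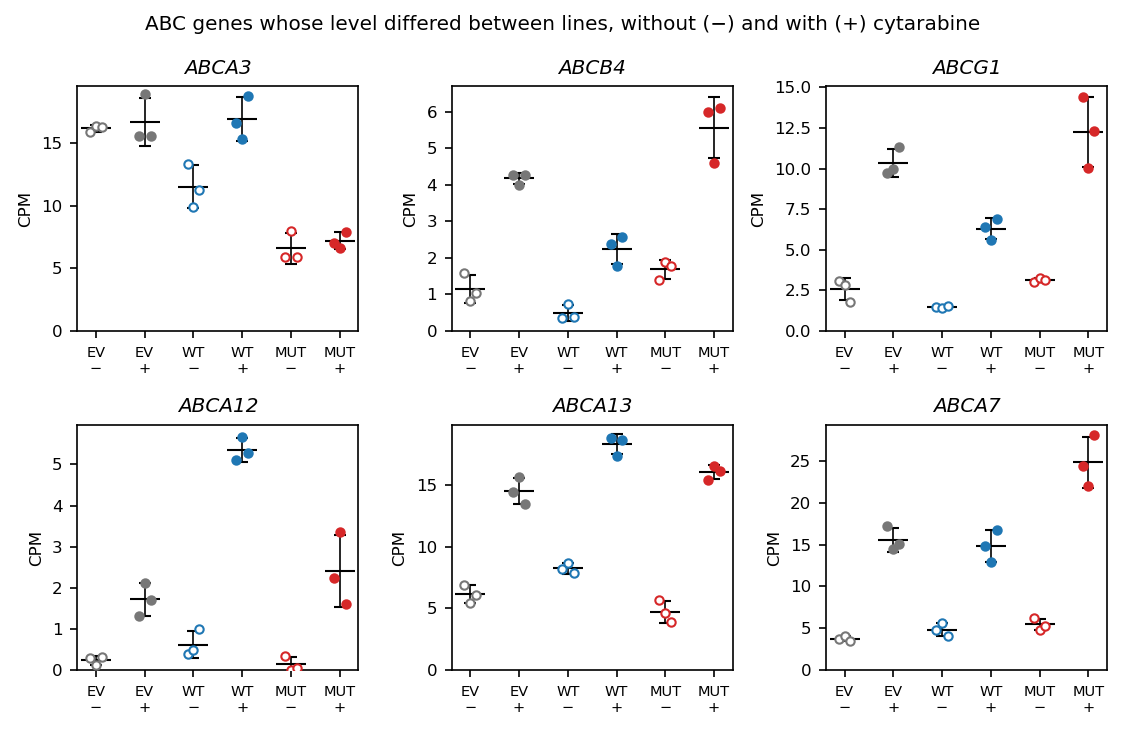
CPM of 6 lipid exporters in each library of the 6 groups (open circles untreated, filled circles with cytarabine; bars give mean and SD, n = 3, on axes that start at 0). ABCA3 was lowest in the MUT line with and without the drug, and ABCB4 and ABCG1 were lowest in the WT line.

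Both potassium channel subunits rose in all 3 lines, as did 18.9% of all tested genes. ABCC9 (chromosome 12, 21797401 to 21942530, minus strand) is the sulphonylurea receptor of muscle-type channels. In EV cells ABCC9 stood at 0.701, 2.04 and 1.6 CPM untreated and 2.64, 4.31 and 4.06 CPM with cytarabine. WT libraries held ABCC9 at 0.638, 0.847 and 0.770 CPM untreated and 3.43, 3.35 and 3.48 CPM treated. The ABCC9 level in MUT cells was 1.86, 1.32 and 1.26 CPM before and 2.94, 3.69 and 3.49 CPM after treatment. Treated libraries did not overlap untreated ones within a line. ABCC9 had a log2 fold change of 1.34 (SE 0.29) in EV, 2.18 (SE 0.31) in WT and 1.18 (SE 0.28) in MUT, with edgeR adjusted p of 0.000741, 9.27e-06 and 0.00165. ABCC8, the receptor of pancreatic beta cells, stood at 0 to 0.440 CPM in untreated and 0.144 to 1.37 CPM in treated libraries, and its WT call was lost without any 1 of the 6 WT libraries (1.36 to 1.87). The MUT call of ABCC8 was lost without untreated replicate 1 or 3 (2.39 and 2.44). KCNJ8 and KCNJ11, which form the pores that these subunits gate, also rose in all 3 lines, by log2 fold changes of 1.19, 1.25 and 1.36 for KCNJ8 and 1.21, 1.62 and 1.64 for KCNJ11 in EV, WT and MUT.

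Of the 9 members of mitochondria, lysosomes and peroxisomes, EV cells had 4 higher and 1 lower with the drug, WT cells 3 higher and 2 lower, and MUT cells 5 higher and 2 lower. The shares of all tested genes were 26.1% higher and 22.9% lower in EV, 26.3% and 22.7% in WT, and 30.4% and 25.9% in MUT. The median log2 fold changes of the 9 were 0.30, 0.26 and 0.46.

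ABCB9 (chromosome 12, 122920951 to 122981650, minus strand) moves peptides into lysosomes. In EV cells ABCB9 stood at 30.1, 25 and 27.1 CPM untreated and 46.2, 52.6 and 45.2 CPM with cytarabine. WT libraries held ABCB9 at 27.5, 26.5 and 27.3 CPM untreated and 57.9, 55.5 and 55.1 CPM treated. The ABCB9 level in MUT cells was 34.4, 32.9 and 37.8 CPM before and 61.6, 63.1 and 61.7 CPM after treatment. The MUT libraries were highest in both states. ABCB9 had a log2 fold change of 0.81 (SE 0.078) in EV, 1.05 (SE 0.077) in WT and 0.83 (SE 0.076) in MUT, with edgeR adjusted p of 8.82e-08, 2.72e-09 and 3.02e-08. ARL6IP4 and OGFOD2 overlap ABCB9 on the opposite strand, and the handling of strand in the counting is not given in the sources used here. Their group means were lower with cytarabine, at 169 and 146 CPM in EV cells for ARL6IP4 and 19.1 and 14.8 CPM for OGFOD2.

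ABCB8 (chromosome 7, 151028422 to 151047783, plus strand), of the inner mitochondrial membrane, was the member of this group that fell in all 3 lines. In EV cells ABCB8 stood at 14.3, 15.1 and 13.1 CPM untreated and 10.5, 9.74 and 10.8 CPM with cytarabine. WT libraries held ABCB8 at 11.1, 11.3 and 11.4 CPM untreated and 8.49, 8.75 and 8.66 CPM treated. The ABCB8 level in MUT cells was 14.1, 15.1 and 15.4 CPM before and 10.9, 11.6 and 12.3 CPM after treatment. The WT line was lowest in both states. ABCB8 had a log2 fold change of -0.45 (SE 0.092) in EV, -0.38 (SE 0.093) in WT and -0.36 (SE 0.090) in MUT, with edgeR adjusted p of 0.000480, 0.00206 and 0.00230. ABCD3, another peroxisomal member, at 94.0 to 110.0 CPM in the 6 group means, had log2 fold changes of 0.10, 0.12 and 0.04, none past the threshold. ABCB10, a mitochondrial member of haem metabolism, had 0.05 in EV and rose by 0.26 in WT and 0.32 in MUT, and its WT call was lost without any 1 of the 6 WT libraries (0.21 to 0.29) and its MUT call without untreated replicate 2 (0.22). ABCB6, a porphyrin transporter, rose in MUT cells by 1.03, a call lost without treated or untreated replicate 2 (0.84 and 0.77). AC068946.2, a protein-coding gene, overlaps ABCB6 on the same strand over 9247 bases. Its means in MUT cells were 0.829 CPM untreated and 1.072 CPM treated, and the counts of the pair cannot be told apart with certainty. ABCD2, a peroxisomal fatty acid transporter, rose in EV cells by 1.93 from a mean of 0.237 to 0.935 CPM, and that call was lost without treated replicate 2 or 3 (1.52 and 1.84) or untreated replicate 1 or 3 (1.48 and 1.79). ABCD4, which takes part in lysosomal export of vitamin B12, rose by 0.55 in EV and 0.46 in MUT and had 0.23 in WT.

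The ABCE and ABCF genes held most of the family's RNA per length in untreated cells and fell in every line. Their products split, recycle or start ribosomes instead of moving a substrate across a membrane. Per exonic length, ABCF1 at 39.1 RPKM, ABCE1 at 32.0, ABCF2 at 16.3 and ABCF3 at 14.2 were the 4 highest members in untreated EV cells, followed by ABCD3 at 13.4. The 4 genes fell in all 3 lines, with medians of -0.73, -0.61 and -0.80, and these calls held in each of the 12 alternatives of each line. Their abundance, from 5.77 to 7.32 in mean log2 CPM, put all 4 on the upper side of the split at 4. On that side 39.7%, 37.4% and 41.5% of the tested genes fell in EV, WT and MUT. Whatever their abundance, 16.4% of the tested genes fell in all 3 lines.

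ABCE1 (chromosome 4, 145097932 to 145129180, plus strand) splits ribosomes after termination. In EV cells ABCE1 stood at 210.3, 200.2 and 190.2 CPM untreated and 109, 124 and 117 CPM with cytarabine. WT libraries held ABCE1 at 234, 204 and 225 CPM untreated and 132, 138 and 136 CPM treated. The ABCE1 level in MUT cells was 202, 194 and 219 CPM before and 112, 123 and 117 CPM after treatment. The lowest untreated library was above the highest treated one across all lines. ABCE1 had a log2 fold change of -0.78 (SE 0.072) in EV, -0.71 (SE 0.072) in WT and -0.81 (SE 0.072) in MUT, with edgeR adjusted p of 4.88e-08, 1.52e-07 and 2.02e-08. OTUD4, which overlaps ABCE1 on the opposite strand, was also lower with cytarabine, at 72.5 and 46.0 CPM in EV cells.

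ABCF1 (chromosome 6, 30571376 to 30597180, plus strand) takes part in translation initiation. In EV cells ABCF1 stood at 173, 178 and 176 CPM untreated and 101, 109 and 110.4 CPM with cytarabine. WT libraries held ABCF1 at 181, 179 and 184 CPM untreated and 113, 123 and 116 CPM treated. The ABCF1 level in MUT cells was 167, 187 and 179 CPM before and 97.6, 106 and 101 CPM after treatment. No treated library reached an untreated one in any line. ABCF1 had a log2 fold change of -0.71 (SE 0.062) in EV, -0.63 (SE 0.062) in WT and -0.80 (SE 0.062) in MUT, with edgeR adjusted p of 2.30e-08, 1.01e-07 and 3.18e-09.

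ABCF2 (chromosome 7, 151207837 to 151227231, minus strand) is a close relative of ABCF1. In EV cells ABCF2 stood at 84.8, 84.9 and 83.1 CPM untreated and 46.1, 55.4 and 49.9 CPM with cytarabine. WT libraries held ABCF2 at 53.6, 56.8 and 55.3 CPM untreated and 35, 37.3 and 37.6 CPM treated. The ABCF2 level in MUT cells was 70.4, 86.4 and 71.6 CPM before and 38.9, 41.6 and 41 CPM after treatment. The untreated WT libraries were the lowest untreated ones, below all untreated EV and MUT libraries. ABCF2 had a log2 fold change of -0.74 (SE 0.079) in EV, -0.59 (SE 0.080) in WT and -0.91 (SE 0.079) in MUT, with edgeR adjusted p of 2.96e-07, 5.62e-06 and 1.52e-08. Without the drug WT cells held less ABCF2 than EV cells by a log2 difference of -0.61 (SE 0.079, edgeR adjusted p 2.64e-05), and with the drug by -0.46 (SE 0.080, edgeR adjusted p 0.000538). Both calls held in all 12 alternatives.

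ABCF3 (chromosome 3, 184186023 to 184194013, plus strand) had the smallest fall of the 4 genes. In EV cells ABCF3 stood at 69.6, 73.7 and 75.6 CPM untreated and 51.9, 56.9 and 56.9 CPM with cytarabine. WT libraries held ABCF3 at 76.2, 77.1 and 69.1 CPM untreated and 60.8, 60.1 and 63.1 CPM treated. The ABCF3 level in MUT cells was 61.2, 62 and 68.2 CPM before and 47, 41.5 and 48.9 CPM after treatment. Treated and untreated libraries did not overlap within a line. ABCF3 had a log2 fold change of -0.40 (SE 0.073) in EV, -0.27 (SE 0.073) in WT and -0.48 (SE 0.074) in MUT, with edgeR adjusted p of 0.000149, 0.00396 and 1.82e-05.

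**Figure D4:**
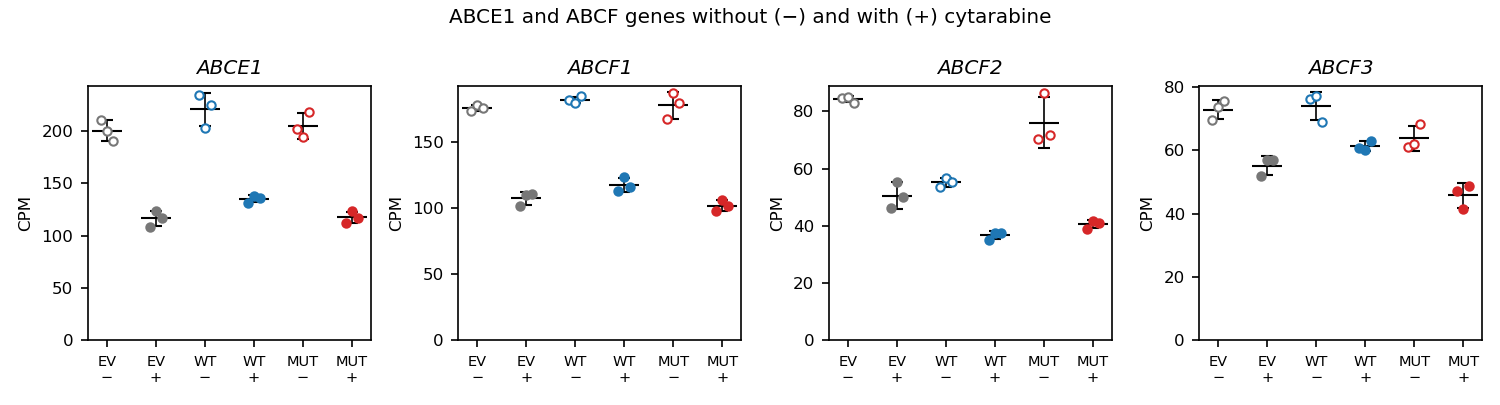
CPM of ABCE1, ABCF1, ABCF2 and ABCF3 in each library of the 6 groups (open circles untreated, filled circles with cytarabine; bars give mean and SD, n = 3, on axes that start at 0). Each gene was lower with cytarabine in each line, and untreated WT cells held less ABCF2 than untreated EV cells.

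The make-up of the family's RNA was set out as shares per length. Of the RPKM summed over the 42 members, the ABCE and ABCF genes made up 60.1% ± 0.56 (SD, n = 3) in untreated EV and 42% ± 0.86 in treated EV cells. The share went from 61.1% ± 0.79 to 44.1% ± 0.85 in WT and from 59.7% ± 1.7 to 39.8% ± 0.98 in MUT cells. Lipid exporters went from 5.89% to 12.1% in EV, from 5.41% to 10.3% in WT and from 4.87% to 12.1% in MUT. Organelle members went from 21.5% to 29.7%, from 20.9% to 27.5% and from 22.8% to 30.3%, and drug and conjugate exporters from 12.5% to 16.1%, from 12.6% to 17.9% and from 12.5% to 17.6%. These shares add up to the whole, so a fall in one raises the others, and they were not tested.

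**Figure D5:**
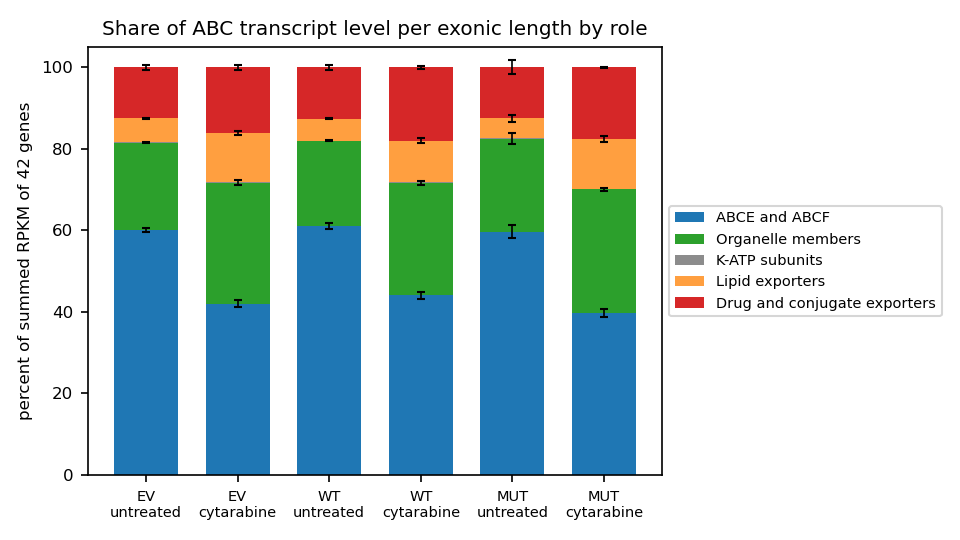
Share of the RPKM summed over all ABC genes (y axis, percent) held by each role in each group, as means of 3 libraries with bars for the SD. The ABCE and ABCF genes held 59.7 to 61.1% of the sum in untreated cells and 39.8 to 44.1% with cytarabine.

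The upstream sequences of members that fell and rose are shown for their CG content, since CG is the site that DNMT3A methylates. The stretches come from RefSeq (GRCh38.p14) and lie within the 250 bases before the RefSeq gene start, without any base inside an annotated exon or the deposited gene span. Each CG is in capitals and the other bases are in lower case, 5′ to 3′ on the strand of the gene. ABCC4 (chr13:95301477-95301701, minus strand, 37 CG) and ABCF2 (chr7:151227232-151227455, minus strand, 22 CG) fell in all 3 lines. ABCB1 (chr7:87713325-87713545, minus strand, 1 CG) and ABCG2 (chr4:88231629-88231876, minus strand, 2 CG) rose in all 3 lines. These 4 stretches do not stand for all members that fell or rose. ABCA5, which also rose in all 3 lines, had 42 CG in its 250 bases, as many as ABCC4 in its 250. The ABCG2 stretch does not adjoin the deposited gene span, which ends at 88231323, and start sites nearer to that span are not shown. The ABCB1 stretch adjoins the outer end of its deposited gene span, and any start site inside that span is not shown.
ABCC4: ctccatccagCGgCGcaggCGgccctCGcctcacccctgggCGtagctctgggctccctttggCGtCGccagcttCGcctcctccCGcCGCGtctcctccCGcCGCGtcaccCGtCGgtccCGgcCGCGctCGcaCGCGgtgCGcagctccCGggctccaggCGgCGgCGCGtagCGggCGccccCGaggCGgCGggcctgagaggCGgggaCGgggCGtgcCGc
ABCF2: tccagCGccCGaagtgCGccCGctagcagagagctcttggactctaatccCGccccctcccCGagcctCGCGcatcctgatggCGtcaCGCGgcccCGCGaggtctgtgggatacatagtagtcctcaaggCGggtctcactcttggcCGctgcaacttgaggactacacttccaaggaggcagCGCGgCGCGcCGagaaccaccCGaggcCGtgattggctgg
ABCB1: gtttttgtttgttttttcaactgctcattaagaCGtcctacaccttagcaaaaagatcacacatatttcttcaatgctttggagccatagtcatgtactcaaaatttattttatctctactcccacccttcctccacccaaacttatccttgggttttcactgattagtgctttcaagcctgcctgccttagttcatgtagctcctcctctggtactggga
ABCG2: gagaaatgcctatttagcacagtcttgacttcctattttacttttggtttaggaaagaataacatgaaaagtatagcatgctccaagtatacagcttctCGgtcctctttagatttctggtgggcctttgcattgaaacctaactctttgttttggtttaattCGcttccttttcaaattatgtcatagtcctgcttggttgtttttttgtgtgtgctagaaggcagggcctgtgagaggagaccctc

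RefSeq windows were at hand for 32 of the 42 members. The 6 members that fell in all 3 lines had 13 to 42 CG in the 250 bases, with a median of 28.5, and all 6 had at least 10. Of 11 members with a window that rose in all 3 lines, 7 had at least 10 CG, with a range of 1 to 42 and a median of 15. Among all 27305 windows of the table, 51.9% had at least 10 CG and the median was 11. CG reads the same on both strands. Methylation was not measured, and these windows do not cover other start sites of a gene.

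Genes that work with the ABC proteins were taken from lists of textbook partners. Of 13 translation partners of the ABCE and ABCF proteins, 11 fell in EV, 10 in WT and 10 in MUT, and none rose. All tested genes were lower in 22.9%, 22.7% and 25.9% of cases, and those whose mean log2 CPM reached 4 in 39.7%, 37.4% and 41.5%. EIF3J, an initiation factor subunit that acts with ABCE1, fell by log2 fold changes of -0.74, -0.63 and -0.90, and the subunit-joining factor EIF5B by -0.52, -0.46 and -1.04. The 14 genes of sterol sensing and the liver X receptor, which controls ABCA1 and ABCG1, were split, with 3 higher and 6 lower in EV cells, 2 higher and 7 lower in WT cells, and 4 higher and 7 lower in MUT cells. In this list LPCAT3 rose by 0.46, 0.59 and 0.45, while SCD, the stearoyl-CoA desaturase, fell by 0.74, 0.56 and 0.77 on the log2 scale. Of 12 genes around NFE2L2, which drives several drug exporters, EV and WT cells each had 2 higher and 7 lower and MUT cells 3 higher and 6 lower, with the haem transporter SLC48A1 up by 1.17, 1.51 and 1.26.

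Organelle partners went both ways. For these lists and those of the sterol and NFE2L2 genes, the shares of all tested genes were 26.1%, 26.3% and 30.4% higher and 22.9%, 22.7% and 25.9% lower in EV, WT and MUT. Of 15 mitochondrial iron and haem genes, 4 were higher in each line, and 6, 6 and 7 were lower in EV, WT and MUT. FDXR, a reductase of iron-sulphur cluster assembly, rose by log2 fold changes of 1.01, 1.22 and 1.00. Among 18 peroxisomal genes the counts were 7 that rose and 4 that fell in EV, 4 and 3 in WT, and 5 and 7 in MUT, with PEX6 up by 0.70, 0.66 and 0.60 and PEX5 down, at -0.50, -0.57 and -0.60. The superfamily members with another symbol were split: TAP1, which loads peptides for antigen presentation, rose by 0.74, 1.21 and 0.63, and its partner TAP2 had -0.42, -0.06 and -0.37, the WT value not past the threshold.

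The response of the ABC genes to cytarabine was then compared between lines. No ABC gene passed in any of the 3 interaction tests of edgeR, where 0.214% of all genes passed when MUT was compared with EV, 1% with MUT and WT, and 0.285% with WT and EV. An unadjusted edgeR p under 0.05 was reached by 5, 11 and 5 ABC genes. The share of all tested genes at that unadjusted threshold is not given here, so these counts cannot be read as an excess. Within the test of MUT against EV the smallest edgeR adjusted p of an ABC gene was 0.125. Within that of MUT against WT it was 0.0902, for ABCA13, and within that of WT against EV it was 0.357, for ABCA3. DESeq2 called 1 ABC gene for MUT against EV and none in the other 2 tests. Without untreated MUT replicate 1, edgeR called ABCA13 and ABCC5 for MUT against EV and ABCA13 for MUT against WT. The rise of ABCA13 was larger in MUT than in WT by a log2 difference of 0.61 (SE 0.17) with all libraries.

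More ABC genes were called between lines at a fixed treatment than in the interaction tests, and the same held for all tested genes. An interaction test draws on more groups and is less precise, so these counts do not compare the size of the differences. The line comparisons share groups and are not independent of each other. The summed epithelial markers stood at 791 to 819 CPM in untreated EV, 497 to 547 CPM in untreated WT and 705 to 984 CPM in untreated MUT libraries, and at 644 to 789, 468 to 498 and 761 to 791 CPM with the drug. Without the drug 2 of the 5 tested markers were lower in WT than in EV cells, 2 were higher in MUT than in WT, and 1 was lower in MUT than in EV. Their part in the line differences of the ABC genes was not tested. Untreated MUT and EV cells differed in 8 ABC genes (19.9% of all genes differed), 5 higher in MUT (9.88%) and 3 lower (10%). ABCG2, ABCA7, ABCB9 and ABCC4 were among those higher and ABCA1, ABCA3 and ABCC5 lower. ABCG2 differed by 0.93 (SE 0.25, edgeR adjusted p 0.0118). This call was lost without untreated EV replicate 1 (0.74) and in a fit of the untreated EV and MUT groups alone (0.92). ABCA7 differed by 0.54, a call lost without untreated EV replicate 1 (0.53) or 3 (0.49) or untreated MUT replicate 1 (0.43). ABCC4 differed by 0.26, and only without untreated MUT replicate 3 did its call hold among the fits that left out 1 library, with 0.19 to 0.30 in the others. Of these 8 calls, ABCA3 alone held in all 12 alternatives, and it was the 1 gene called in a fit of the EV and MUT groups without drug.

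Untreated WT and EV cells differed in 7 ABC genes (11.7% of all genes differed). ABCA13 was higher in WT (4.3% of all genes were), and ABCA3, ABCB4, ABCB8, ABCC6, ABCF2 and ABCG1 were lower (7.36%). ABCB4 differed by -1.22 (SE 0.33, edgeR adjusted p 0.0186) and ABCG1 by -0.80 (SE 0.21, edgeR adjusted p 0.016). The ABCB4 call was lost without untreated EV replicate 1 (-0.92) or untreated WT replicate 1 or 3 (-1.01 and -1.09). That of ABCG1 was lost without untreated EV replicate 1 or 2 (-0.65 and -0.72) or untreated WT replicate 1 or 2 (-0.80 and -0.79). ABCA13 differed by 0.43 and kept its call without untreated EV replicate 1 alone, with 0.35 to 0.46 in the other fits that left out 1 library. Of the 7 calls ABCF2 alone held in all 12 alternatives.

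The untreated MUT and WT lines differed in 18 ABC genes, where 21.2% of all genes differed, with 10 higher in MUT (11.7%) and 8 lower (9.54%). ABCB4 was higher in MUT by 1.77 (SE 0.31, edgeR adjusted p 0.000511), ABCG1 by 1.08 (SE 0.20, edgeR adjusted p 0.000932) and ABCC9 by 0.98 (SE 0.33, edgeR adjusted p 0.0405). ABCA3 was lower by -0.81, ABCA13 by -0.80 and ABCC3 by -0.65. The calls of ABCA3, ABCA13, ABCB4, ABCC4, ABCF2 and ABCG1 held in all 12 alternatives. ABCC3 lost its call without untreated WT replicate 2 (-0.58), and ABCC9 lost it without untreated MUT replicate 1 (0.78) or without any 1 untreated WT library (0.87 to 1.11). The ABCC9 call was also lost without the low-count filter (0.98) and in a fit of the untreated MUT and WT groups alone (0.97).

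With cytarabine, MUT and EV cells differed in 8 ABC genes (14% of all genes), 4 of them higher in MUT (6.85%) and 4 lower (7.13%). WT and EV cells differed in 10 (16.5%), of which 4 were higher in WT (7.41%) and 6 lower (9.12%). MUT and WT cells differed in 12 (19.8%), with 7 higher in MUT (10.4%) and 5 lower (9.48%). ABCA7 was higher in treated MUT cells than in EV cells by 0.67 (SE 0.13, edgeR adjusted p 0.00143) and than in WT cells by 0.74 (SE 0.13, edgeR adjusted p 0.000367). ABCA12 was higher in treated WT than in treated EV cells by 1.64 (SE 0.38, edgeR adjusted p 0.00528). ABCG4 was lower in that comparison by -1.06 and ABCG1 by -0.72. ABCB4 was lower in treated WT cells too, by -0.90 against EV (-0.76 and no longer called without treated WT replicate 2), and higher in MUT than in WT by 1.31.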

How the data were processed

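The values were estimated counts per gene as deposited by the authors for 18 libraries, and 70.4% of them were whole numbers. They were rounded to whole numbers. The submitters' processing notes name CASAVA, STAR 2.6.1d and the build hg38, with no role or order. The counting tool and its handling of strand are not given in the sources used here. A second table deposited by the authors holds a normalized signal. Each such value was 1 plus the product of a factor of its library and the count, to within a relative 7.36e-06. Its factors served as an alternative scaling, and 38 members are in it. Library totals were 15.4 M to 21.9 M counts. Replicates differed beyond counting noise, with a chi-square per degree of freedom of 2.42 to 45.5.

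Samples were grouped by line and treatment from their labels. Low counts were filtered with filterByExpr of edgeR 4.0.16 (limma 3.58.1, R 4.3.3), libraries were scaled by TMM, and 1 quasi-likelihood fit of 6 group means gave 12 contrasts: 3 drug effects, 3 differences between them and 6 line comparisons. P-values were adjusted by Benjamini and Hochberg over 18226 genes, with a threshold of 0.05. CPM are per TMM-scaled library, and the mean log2 CPM of a gene uses a prior count of 2. Fold changes are those of the edgeR test, and each SE was obtained from the fold change and its F statistic (absolute log2 value over the root of F). RPKM divide CPM by the union of annotated exons (GENCODE). Tables were handled in Python with pandas 2.3.3 and numpy 2.4.6, and figures were drawn with matplotlib 3.10.9. Upstream sequences come from RefSeq, GRCh38.p14.

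Alternatives were the size factors of DESeq2 1.42.0 in edgeR, DESeq2 itself, the authors' factors, no low-count filter, a replicate block, a fit of only the groups compared, and leaving out each library in turn. Values in every library are given for ABCB1, ABCC1, ABCC4, ABCC10 and ABCG2, for the 5 largest rises and 5 largest falls in each drug effect, for members past the threshold in a difference between effects, and for the 3 largest in each direction in each untreated line comparison. Apart from those exporters, such members had to pass the threshold, have a mean log2 CPM of at least 1 and not overlap between groups. Of each list of other genes at most 4 are named, by size of change. Members, gene lists and roles were chosen with earlier results of these data known. Some members and list genes are counted in the totals but not reported here by name.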

Additional observations from a re-analysis of the deposited data

How the results depend on the processing

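In the drug effects, 25 of 29 ABC calls in EV, 23 of 25 in WT and 26 of 31 in MUT held in all 12 alternatives. Leaving out 1 library gave 25 to 28 calls in EV, 23 to 24 in WT and 29 to 32 in MUT. Such fits called 0 to 2 ABC genes for the MUT and EV difference in response, 0 to 1 for MUT and WT, and 0 for WT and EV. They called 3 to 8, 2 to 5 and 11 to 17 in untreated MUT and EV, WT and EV, and MUT and WT, and 5 to 7, 6 to 9 and 8 to 10 with cytarabine. DESeq2 called 1 for the MUT and EV difference in response. Fits of only the groups compared called 1 for untreated MUT and EV and 7 for untreated MUT and WT. The cause of these shifts was not tested. The share of all tested genes called in each alternative is not given here, so these counts cannot be read against it. The log2 values that changed sign passed the threshold in no setting. The WT effect of ABCC10 was 0.000344 with DESeq2 size factors, 0.000377 with DESeq2, 0.000419 with the replicate block and -0.062 to 0.047 without 1 library. The MUT and WT difference for ABCC4 was -0.037 with DESeq2 size factors, -0.0366 with DESeq2, -0.0098 with the authors' factors, -0.0048 without the filter and -0.11 to 0.081 without 1 library. The WT effect of ABCC1 was -0.039 with the authors' factors. Without 1 library ABCC1 ran from -0.046 to 0.072 (WT effect), -0.037 to 0.19 (MUT effect), -0.059 to 0.17 (MUT and WT difference), -0.075 to 0.050 (untreated WT and EV) and -0.22 to 0.0019 (untreated MUT and WT). ABCB1 ran from -0.15 to 0.083 in untreated WT and EV, and the WT and EV difference for ABCG2 from -0.16 to 0.30. The replicate numbers were not shown to pair samples: same-numbered samples had correlations of deviations from -0.176 to 0.352 (median -0.0159), 7 of 45 over 0.1. The replicate block gave 29, 26 and 31 calls in the effects, 0 in each difference, and 8, 7 and 17 without and 8, 8 and 12 with drug in the line comparisons. Depth limits members at or near 3 counts, such as ABCB5 and ABCC8.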
